A study of Mus musculus with 13 samples.

Results

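The 6 genes followed here guide developing T cells through the thymus and out of it. They are the chemokine receptor genes Cxcr4, Ccr9, Ccr4 and Ccr7, the transcription factor gene Klf2 and the egress receptor gene S1pr1. The genes were chosen by symbol, and all 6 of 6 were found among the 57010 genes listed for both experiments. The study ran split-pool barcoding single-cell RNA sequencing from Parse Biosciences, in which fixed cells receive their barcode over successive rounds of pooling, on mouse immune cells with 2 kits. The kit named Parse WT was sequenced as 9 sublibraries of 20 pooled samples, and the smaller kit named Parse Mini as 2 sublibraries of 4 samples. For each kit, 4 thymic lobes came from 2 female C57BL/6N mice of 2 months, with 2 lobes per mouse and no genetic change. They are called Parse WT lobes 1 to 4 and Parse Mini lobes 1-A, 1-B, 2-A and 2-B. The lobes were mashed and digested with collagenase, dispase and DNase before fixation. The kit as a whole held thymus and spleen of young and adult mice, controls or after chronic stress. The labels do not give the tissue, age or treatment of its other 16 samples, so these were put in no group. The study describes them as non-thymic and unrelated to the thymic lobes.

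Thymocytes mature while they travel. Double-negative (DN) precursors enter the cortex, become double-positive (DP) cells that divide (DP-P), recombine their antigen receptor genes (DP-R) and undergo positive selection (DP-S), and the survivors move into the medulla as single-positive (SP) CD4 or CD8 cells. CXCR4 binds CXCL12, made by the cortical stroma, and CCR9 binds CCL25, made by thymic epithelium. CCR4 binds CCL17 and CCL22, and CCR7 binds CCL19 and CCL21, chemokines of the medulla that draw selected cells out of the cortex. S1PR1 senses sphingosine 1-phosphate, which is plentiful in blood and scarce in tissue, and mature thymocytes need it to leave. KLF2 is a transcription factor that switches on S1pr1 and other genes of recirculating T cells.

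Positions were taken from the GENCODE M21 annotation of GRCm38. Cxcr4 (ENSMUSG00000045382) lies at chr1:128588199-128592293 on the minus strand, Ccr4 (ENSMUSG00000047898) at chr9:114490316-114504916 on the minus strand and Ccr7 (ENSMUSG00000037944) at chr11:99144196-99155077 on the minus strand. Klf2 (ENSMUSG00000055148) lies at chr8:72319033-72321656 on the plus strand and S1pr1 (ENSMUSG00000045092) at chr3:115710433-115715072 on the minus strand. None of these 5 overlaps another annotated gene. Ccr9 (ENSMUSG00000029530) spans chr9:123678439-123784330 on the plus strand and overlaps 6 other genes, 2 of them on its own strand, Gm17200 and Gm17020, so its counts could include reads of those genes.

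The promoters of Klf2 and Ccr9 are shown because these genes moved in opposite directions at the last CD4 step described below. Each is the 250 bases before the RefSeq start on GRCm38.p6, 5′ to 3′ on the gene's strand, Klf2 at chr8:72318812-72319061 and Ccr9 at chr9:123766961-123767210. Capitals mark matches on either strand to CACCC, the core of the KLF site, to GGGCGG, the SP1 box, and to CAGGTG, an E box that E proteins and ZEB1 bind.
Klf2: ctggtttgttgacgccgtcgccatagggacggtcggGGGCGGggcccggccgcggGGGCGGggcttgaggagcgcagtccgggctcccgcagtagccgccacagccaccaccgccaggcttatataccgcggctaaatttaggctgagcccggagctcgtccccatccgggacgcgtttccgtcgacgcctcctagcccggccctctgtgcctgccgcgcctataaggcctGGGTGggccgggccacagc
Ccr9: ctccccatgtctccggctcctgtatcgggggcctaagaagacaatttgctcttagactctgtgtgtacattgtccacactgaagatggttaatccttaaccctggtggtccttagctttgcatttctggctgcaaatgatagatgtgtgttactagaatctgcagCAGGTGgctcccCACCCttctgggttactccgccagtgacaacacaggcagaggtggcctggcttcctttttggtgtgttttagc
Among 32851 RefSeq promoters of this length, 52.0% held CACCC, 32.7% GGGCGG and 17.2% CAGGTG on either strand. The Klf2 window held GGGCGG 2 times and CACCC once, on the reverse strand, and the Ccr9 window held CAGGTG and CACCC once each. The Cxcr4 window held CACCC once and GGGCGG 3 times, and the Ccr4 window CAGGTG and CACCC once each. TGTTTAC, the site of FOXO factors, was in none of these 4 windows and in 3.17% of all promoters. The same windows for Ccr7 and S1pr1 were not analysed here.

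The thymic lobes held 61923 barcodes, 4178 to 15077 per Parse WT lobe and 4498 to 5426 per Parse Mini lobe, with 30450786 to 124106974 and 28057164 to 33264104 unique molecular identifiers (UMIs, counted RNA molecules). Median UMIs per cell were 3227 to 4263 in the Parse WT lobes and 2388 to 3221 in the Parse Mini lobes. Each sample had its own first-round wells, so no barcode could be shared between samples of a kit. Filters on UMIs, mitochondrial share and doublet score left 42396 cells. Clusters were built without the 6 genes and without a list of 79 other migration genes, and were named from other marker genes. They gave 636 DN-like, 5051 DP-P-like, 21152 DP-R-like, 4107 DP-S-like, 978 signalled DP-S-like, 1699 immature SP-CD4-like, 1541 mature SP-CD4-like and 855 SP-CD8-like cells. The signalled cluster was led by Nr4a3 and Ikzf2, genes switched on by strong receptor signals. In the immature SP-CD4-like cluster the DP-S markers led, at a mean log2 fold of 1.63 over all other cells. The SP-CD4 markers stood at 1.24 there, and the DP-R markers at -2.73. The mature SP-CD4-like cluster also held regulatory T cells, with 113 UMIs of Foxp3, their defining factor. A further 5115 cells stayed unnamed.

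For levels, each cell was thinned to 1000 UMIs outside ribosomal RNA, and levels are counts per 1000000 UMIs (CPM). Cells below that depth were left out, between 0.495% of the DP-P-like and 28.1% of the immature SP-CD4-like cells. Since the clusters come from other genes of the same cells, the tests below take them as given. Lobes of a mouse are technical replicates and the labels do not tie lobes to mice, so p-values over lobes are too small throughout.

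Cxcr4, the receptor that holds early thymocytes in the cortex, had its highest means in the stages before the SP cells. Its lowest mean was in the immature SP cells. In the DP-P-like cells it stood at 239, 77.4, 125 and 68.1 CPM in Parse WT lobes 1 to 4 and at 104, 116, 96.2 and 87.8 in Parse Mini lobes 1-A to 2-B. In the immature SP-CD4-like cells it stood at 45.0, 10, 21.9 and 20.5 in the Parse WT lobes and at 27.0, 11, 16.4 and 54.1 in the Parse Mini lobes. Each of the 8 lobes was lower in the later stage and the groups did not overlap. The means were 114 ± 53.9 (SD, n = 8 lobes) and 25.7 ± 15.9. The DN-like (111 ± 46.5), signalled DP-S-like (96.1 ± 44.3), DP-R-like (85.3 ± 27.5) and DP-S-like cells (71.9 ± 23.2) followed the DP-P-like cells, each overlapping the next. The mature SP-CD4-like cells at 62.0 ± 25.8 and the SP-CD8-like cells at 45.6 ± 20.5 lay between these and the immature SP cells, overlapping both neighbours. The highest stage was DP-P-like in 3 lobes, signalled DP-S-like in 3 and DN-like in 2.

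Lobes of the Parse WT kit spread widely for Cxcr4. Lobe 1 stood at 130 CPM in the DP-R-like cells, lobe 2 at 68.7, lobe 3 at 119 and lobe 4 at 68.1. In the mature SP-CD4-like cells the same lobes stood at 100, 58.2, 101 and 48.3. In both stages lobes 1 and 3 were higher than lobes 2 and 4. The Parse Mini lobes ranged from 45.0 to 85.8 in the DP-R-like cells.

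Ccr9, the receptor for epithelial CCL25, climbed through the DP stages and was low at both ends. Its mean rose from 161 ± 39.5 CPM in the DN-like to 305 ± 53.8 in the DP-P-like and 736 ± 55.0 in the DP-R-like cells (SD, n = 8 lobes). In the DP-S-like cells it stood at 1134, 966, 937 and 975 in Parse WT lobes 1 to 4 and at 919.7, 1045, 1054 and 1111 in the Parse Mini lobes. In the mature SP-CD4-like cells the same lobes stood at 64.3, 138, 132 and 172 and at 268, 204, 250 and 173. The lowest DP-S-like lobe was thus far above the highest mature SP-CD4-like lobe, with means of 1018 ± 80.1 and 175 ± 66.2. The immature SP-CD4-like cells at 801 ± 176 overlapped both the DP-S-like and the DP-R-like cells. The signalled DP-S-like cells had a mean of 591 and ranged from 346 to 812. SP-CD8-like cells held 407 ± 52.0, above every mature SP-CD4-like lobe, with a lowest lobe of 329. The DP-S-like stage was the highest in 7 of 8 lobes and the immature SP-CD4-like stage in 1.

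Ccr4, the receptor for medullary CCL17 and CCL22, was raised from the DP-S-like to the immature SP-CD4-like stage and low before and after. It stood at 3.95 ± 1.12 CPM in the DP-R-like, 46.1 ± 20.2 in the DP-S-like, 93.9 ± 27.1 in the signalled DP-S-like and 136 ± 38.0 in the immature SP-CD4-like cells (SD, n = 8 lobes). It was back at 10.2 ± 6.12 in the mature SP-CD4-like cells and was 22.1 ± 11.6 in the SP-CD8-like cells. In the immature SP-CD4-like cells Parse WT lobes 1 to 4 stood at 72.1, 100, 131 and 133 and the Parse Mini lobes at 135, 187, 180.3 and 149. Every one of them was above the highest mature SP-CD4-like lobe, at 19.4. The DP-S-like, signalled and immature SP-CD4-like stages overlapped their neighbours in this order. All 3 stood clear of the DP-R-like cells, whose highest lobe was 5.55. The highest stage was the immature SP-CD4-like in 6 lobes and the DP-S-like in 1. In Parse WT lobe 2 the immature SP-CD4-like and signalled DP-S-like stages tied at 100 CPM.

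Ccr7, the receptor for CCL19 and CCL21 that brings selected cells into the medulla, followed Ccr4 and did not fall again. Its mean was 6.25 ± 2.36 CPM in the DP-R-like, 19.6 ± 9.42 in the DP-S-like, 80.2 ± 49.0 in the signalled DP-S-like and 171 ± 52.8 in the immature SP-CD4-like cells. In the mature SP-CD4-like cells it stood at 707, 566, 561 and 577 in Parse WT lobes 1 to 4 and at 537, 806, 356 and 755 in the Parse Mini lobes. The mean of 608 ± 143 was 3.56 times that of the immature SP-CD4-like cells, whose highest lobe, at 290, lay under the lowest mature lobe. The SP-CD8-like cells at 543 ± 103 overlapped the mature SP-CD4-like cells.

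Klf2 and S1pr1, the egress pair, were near 0 until the mature SP stages. S1pr1 gave 4 UMIs in 1222 immature SP-CD4-like cells and none in the 4 Parse Mini lobes. In the mature SP-CD4-like cells it stood at 336, 222, 222 and 221 CPM in Parse WT lobes 1 to 4 and at 244, 223, 288 and 145 in the Parse Mini lobes. All 8 lobes lay above the highest immature lobe, at 10, and the mean was 238 ± 55.7. In the SP-CD8-like cells S1pr1 stood at 200, 120, 88.7 and 129 in the Parse WT lobes and at 190, 212, 178 and 97.2 in the Parse Mini lobes, with a mean of 152 ± 48.7. These values overlapped those of the mature SP-CD4-like cells, and in each lobe the SP-CD8-like value was the lower one.

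Klf2 had the same form. It was listed with no UMI in 623 DN-like cells, which allows a share of cells with a UMI of up to 0.482%, and had means of 1.86 to 5.67 CPM in the stages from DP-P-like to immature SP-CD4-like. In the mature SP-CD4-like cells Parse WT lobes 1 to 4 stood at 157, 106, 122 and 109 and the Parse Mini lobes at 110, 58.3, 67.3 and 63.6. The highest immature SP-CD4-like lobe, at 16.4, rested on 2 UMIs. SP-CD8-like cells held 81.6 ± 47.0, with Parse WT lobe 1 at 187 and the other 7 lobes between 35.3 and 95.2.

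**Figure D1:**
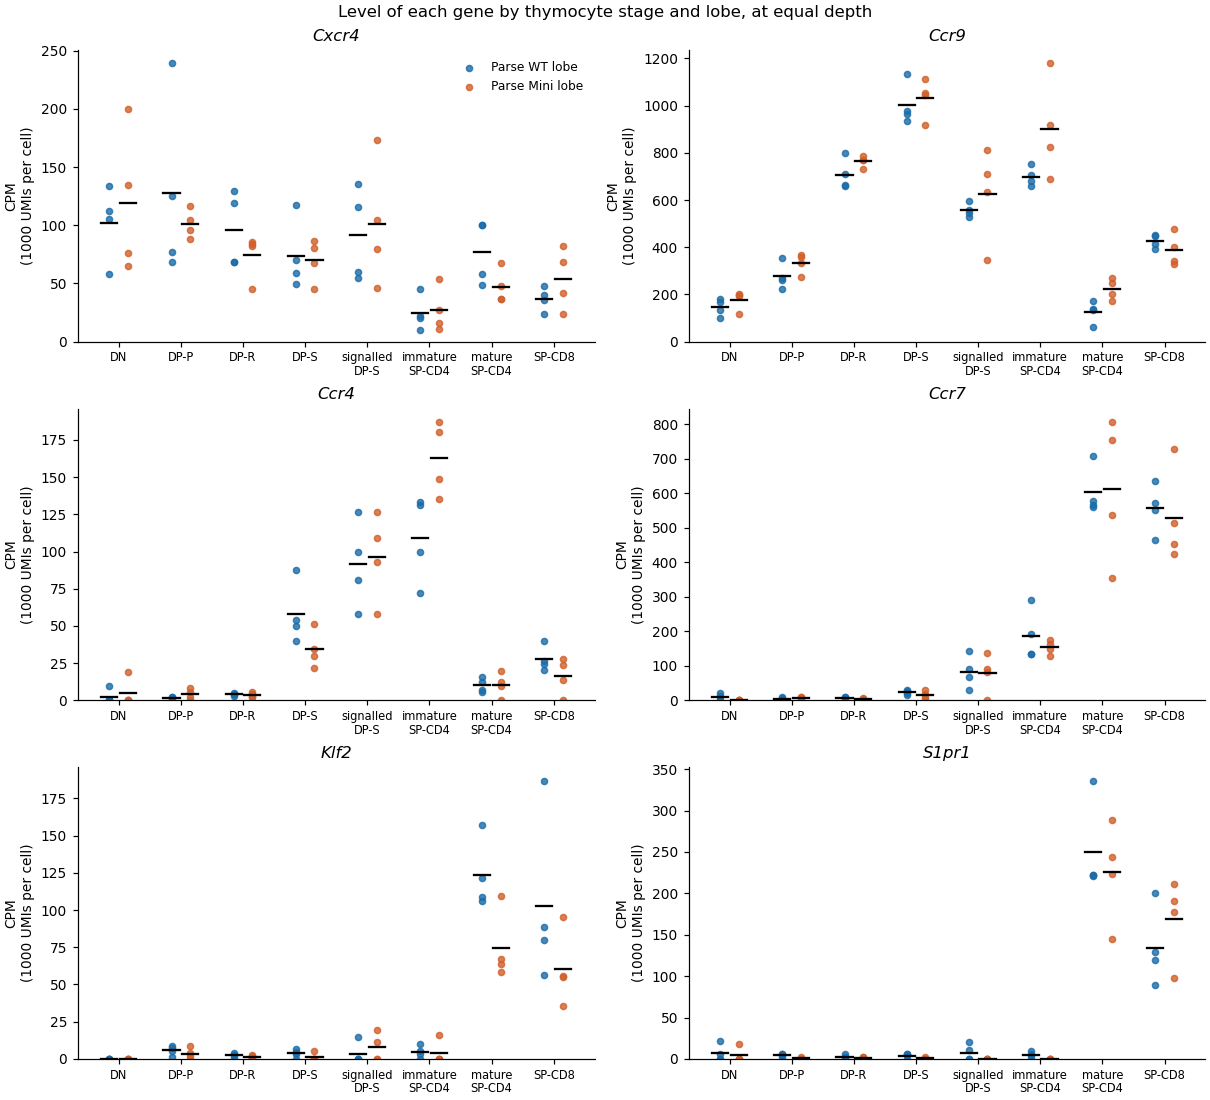
Level of each of the 6 genes (y axis, CPM at 1000 UMIs per cell) in 8 thymocyte stages (x axis). Each point is 1 lobe, coloured by kit, and each bar is the mean of the 4 lobes of a kit. Cxcr4 has its highest means in the stages before the SP cells, with lobes that overlap those of the mature SP-CD4-like cells. Mean Ccr9 peaks in the DP-S-like cells, Ccr4 in the immature SP-CD4-like cells, and Ccr7, Klf2 and S1pr1 in the mature SP-CD4-like cells.

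As a check on free RNA, shares of cells with a UMI were set beside erythroid-like cells, taken here as lacking these genes. This was done at 500 UMIs per cell, since the erythroid-like cells are shallow. Of 86 erythroid-like cells, 11.6% (exact 95% interval 5.72% to 20.3%) had a UMI of Ccr9, 6.98% of Cxcr4, 2.33% of Ccr7 and 1.16% of S1pr1, and none had one of Ccr4 or Klf2, which allows up to 3.49%. At the same depth 31.5% of the immature SP-CD4-like cells had a Ccr9 UMI, and 24.6% and 10.3% of the mature SP-CD4-like cells had a Ccr7 and an S1pr1 UMI. Ccr9 shares were 6.45% in the DN-like, 13.3% in the DP-P-like, 17.2% in the SP-CD8-like and 6.94% in the mature SP-CD4-like cells. All lay within the interval of the erythroid-like share, so expression there cannot be told apart from background. Between DN-like (4.67% to 8.64%) and DP-P-like cells (12.4% to 14.3%) the Ccr9 share still differed beyond counting error. It also did between mature SP-CD4-like (5.72% to 8.33%) and SP-CD8-like cells (14.7% to 19.9%). Ccr7 shares up to the immature SP-CD4-like stage, at 7.95%, did not exceed the erythroid-like interval of 0.283% to 8.15%. Ccr4 at 2.14% in the DP-S-like cells lay under its limit of 3.49%. Klf2 at 3.98% in the SP-CD8-like cells had an interval of 2.77% to 5.52%, which included that limit. S1pr1 at 6.44% in the SP-CD8-like cells had an interval of 4.89% to 8.30%. That interval overlapped the erythroid-like S1pr1 interval, which reached 6.31%. These levels are likewise not told apart from background. Ccr7 from DP-S-like to immature SP-CD4-like and Ccr4 from DP-R-like to DP-S-like cells still rose beyond counting error. For Cxcr4 all 8 stages, from 1.35% in the immature SP-CD4-like to 5.35% in the DN-like cells, were under the erythroid-like share, whose exact 95% interval ran from 2.60% to 14.6%. The Cxcr4 share still differed between stages beyond counting error, at 0.860% to 2.02% in the immature SP-CD4-like and 4.31% to 5.52% in the DP-P-like cells. The immature SP-CD4-like interval lay wholly under the erythroid-like one, so the erythroid-like share is not read as a background level for Cxcr4. Whether erythroid-like cells express Cxcr4 was not tested. At 1000 UMIs, 246 of 1248 mature SP-CD4-like cells (19.7%, exact 95% interval 17.5% to 22.0%) had an S1pr1 UMI and 9.38% a Klf2 UMI. Intervals and limits cover counting error only.

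The 6 steps between stages were tested with edgeR's quasi-likelihood test on the summed counts of each lobe and stage, with lobe as a block and p-values adjusted over the 7611 genes tested. All 6 genes passed the filter on low counts, S1pr1 and Klf2 through the mature stages where they are high, so how many were called is read only beside the share called among all genes. Fold changes are on the log2 scale with approximate standard errors. Each was taken as the absolute log2 fold change divided by the square root of the test's F statistic. Counts of lobes beside them are on the summed counts at full depth.

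From the DN-like to the DP-P-like cells Ccr9 rose by 0.80 ± 0.12 (adjusted p = 5.34e-09), the only one of the 6 called, against 54.1% of all genes called (29.2% higher and 24.9% lower). Cxcr4 differed by -0.14 (adjusted p = 0.296). From the DP-P-like to the DP-R-like cells Ccr9 rose by 1.29 ± 0.07 (adjusted p = 9.58e-30), higher in 8 of 8 lobes. Cxcr4 fell by 0.27 ± 0.07 (adjusted p = 0.000143), lower in 8 of 8 lobes, and Klf2, at a very low level, fell by 0.93 ± 0.24 (adjusted p = 0.000449), lower in 6. In the Parse WT lobes alone the Cxcr4 difference was -0.17 (adjusted p = 0.0643), and in the Parse Mini lobes alone the Klf2 difference was -0.58 (adjusted p = 0.279). These 3 of 6 calls stand beside 75.6% of all genes called at this step (37.5% higher and 38.1% lower).

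The genes of the medullary receptors rose at the entry into selection. From the DP-R-like to the DP-S-like cells Ccr4 rose by 3.72 ± 0.17 (adjusted p = 6.64e-34), Ccr7 by 1.42 ± 0.21 (adjusted p = 1.39e-08) and Ccr9 by 0.43 ± 0.07 (adjusted p = 2.32e-07), each in 8 of 8 lobes (Ccr7 in 7 of 8 at equal depth), where 33.1% of all genes were called (17.8% higher and 15.3% lower). Cxcr4 differed by -0.20 (adjusted p = 0.0602), a borderline value that was called under other settings, such as on thinned cells (-0.31, adjusted p = 0.0296) and in the Parse WT lobes alone (-0.30, adjusted p = 0.0343). The Ccr7 rise was 0.57 (adjusted p = 0.164) when the 6 genes were kept in the clustering. From the DP-S-like to the immature SP-CD4-like cells 4 of the 6 were called, against 36.6% of all genes (18.2% higher and 18.4% lower). Ccr7 rose by 3.17 ± 0.17 (adjusted p = 1.81e-30) and Ccr4 by 1.41 ± 0.15 (adjusted p = 5.58e-14). Cxcr4 fell by 1.59 ± 0.18 (adjusted p = 5.85e-13) in 8 of 8 lobes, and Ccr9 fell by 0.50 ± 0.08 (adjusted p = 3.48e-07) in 7 of 8. S1pr1 differed by 1.36 ± 0.60 (adjusted p = 0.0638) and Klf2 by 0.52 (adjusted p = 0.425), so neither was called at this step. Without Parse WT lobe 1, Parse Mini lobe 1-B or Parse Mini lobe 2-B, S1pr1 was called at 1.53 (adjusted p = 0.0361), 1.45 (adjusted p = 0.0487) and 1.54 (adjusted p = 0.0468). At equal depth S1pr1 had means of 2.31 CPM in the DP-S-like and 2.36 in the immature SP-CD4-like cells, higher in the later stage in 2 of 8 lobes. The fall of Ccr9 was -0.16 (adjusted p = 0.140) with clusters at resolution 1, -0.17 (adjusted p = 0.132) with the 6 genes kept in the clustering and -0.09 (adjusted p = 0.234) with fewer doublets removed.

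The last CD4 step was the one at which all 6 of 6 were called, against 25.9% of all genes (14.8% higher and 11.1% lower). S1pr1 and Klf2 passed the low-count filter through the mature stages, and the 6 genes were chosen with earlier results of these data known. The count of 6 is therefore description only. S1pr1 rose by 5.12 ± 0.27 (adjusted p = 4.19e-30), Klf2 by 4.21 ± 0.28 (adjusted p = 8.69e-24) and Ccr7 by 1.86 ± 0.11 (adjusted p = 1.26e-27). Ccr4 fell by 3.40 ± 0.23 (adjusted p = 1.89e-23) and Ccr9 by 2.07 ± 0.11 (adjusted p = 1.62e-28). Cxcr4 rose again by 1.09 ± 0.21 (adjusted p = 1.75e-05), higher in 7 of 8 lobes, by 0.71 (adjusted p = 0.196) in the Parse Mini lobes alone and by 0.40 (adjusted p = 0.143) with the 6 genes kept in the clustering. The S1pr1 and Klf2 fold changes rest on the few UMIs of the immature stage. Where SP-CD8-like cells were set against mature SP-CD4-like cells, 3 of the 6 were called, against 14% of all genes (5.78% higher and 8.26% lower). Ccr9 was higher by 1.16 ± 0.13 (adjusted p = 2.59e-11), S1pr1 lower by 0.67 ± 0.15 (log2 change -0.67, adjusted p = 0.000726) and Klf2 lower by 0.66 ± 0.18 (log2 change -0.66, adjusted p = 0.00501), each in 8 of 8 lobes. At equal depth Klf2 was lower in 7 of 8, with Parse WT lobe 1 higher. Ccr7 differed by -0.08 (adjusted p = 0.628). The SP-CD8-like cells were 1 cluster, not split by maturity. The mean log2 fold of the mature SP markers over all other cells was 1.76 in it, against 2.23 in the mature SP-CD4-like cluster. The part of maturity in these differences was not tested. The Klf2 difference was -0.42 (adjusted p = 0.610) in the Parse Mini lobes alone and -0.42 (adjusted p = 0.398) on thinned cells, and the S1pr1 difference was 0.0068 with clusters built on 15 components.

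The order of the genes was also read along an axis of cells, from levels pooled in bins. The DP-R-like, DP-S-like and SP-CD4-like cells were placed on an axis by the first principal component of genes that exclude the 6 and the migration list, and each lobe was cut into 10 bins of equal cell number. Over the 8 lobes the median bin of the highest level was 4.5 for Cxcr4 (range 1 to 8), 9 for Ccr9 (8 to 9), 9.5 for Ccr4 (9 to 10) and 10 for Ccr7, Klf2 and S1pr1. Since DP-R-like cells filled most of those bins, the axis was drawn again without them, a choice made after seeing the data. The median bins were then 2.5 for Cxcr4 (1 to 5), 5 for Ccr9 (1 to 6), 6 for Ccr4 (5 to 7) and 10 for Ccr7 (9 to 10), Klf2 (9 to 10) and S1pr1 (10 in every lobe). The medians of both axes follow Cxcr4, Ccr9, Ccr4 and then a tie of Ccr7, Klf2 and S1pr1. Ranges of neighbouring receptors overlapped, except that Ccr4 and Ccr7 did not overlap on the axis without DP-R-like cells. On the axis with DP-R-like cells the order is not resolved in each kit, since Ccr4 tied with Ccr9 at bin 9 in the Parse WT lobes and with the last 3 genes at bin 10 in the Parse Mini lobes, and also tied with the last 3 under 5 bins. The peak of Cxcr4 is poorly set, as its mean lay between 81.0 and 89.1 CPM over bins 1 to 8 of that axis, within its spread, and fell to 60.4 and 44.0 in bins 9 and 10. On the axis without DP-R-like cells the peak of Ccr9 is also poorly set. Its mean lay between 938 and 1055 CPM over bins 1 to 6, within its spread, and fell to 827 in bin 7. On the same axis Ccr4 rose from 15.1 CPM in bin 1 to 130 in bin 6 and fell to 14.7 in bin 10. Bin 6 held 61.3% DP-S-like and 34.2% immature SP-CD4-like cells.

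Ccr7 rose earlier along this axis than S1pr1 and Klf2. Ccr7 stood at 28.3 CPM in bin 5, 83.3 in bin 6, 197 in bin 7 and 309 in bin 8, and reached 596 in bin 10. S1pr1 was still at 41.5 in bin 8 and rose to 164 in bin 9 and 297 in bin 10. Klf2 stood at 21.1, 62.3 and 134 in the same 3 bins. The mean first passed 0.5 times its own highest value at bin 8 for Ccr7, at bin 9 for S1pr1 and at bin 10 for Klf2, and the spread over lobes does not separate S1pr1 from Klf2. Cxcr4 dipped to 23.7 in bin 8 and was at 58.7 in bin 10.

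**Figure D2:**
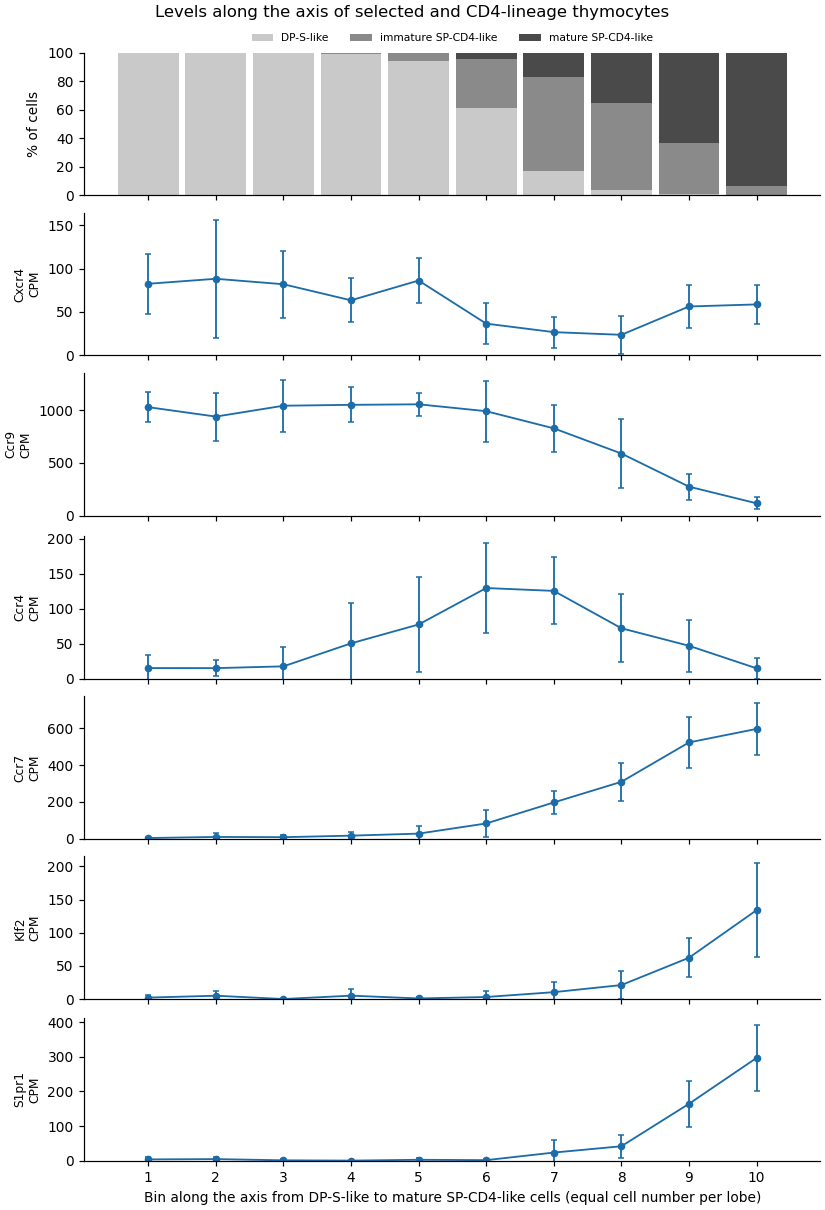
Top, share of each stage among the cells of 10 bins along the maturation axis. Below, level of each of the 6 genes (y axis, CPM, mean ± SD over 8 lobes) by bin (x axis, from DP-S-like to mature SP-CD4-like cells). Ccr4 rises and falls around bin 6, Ccr9 falls after it, Ccr7 climbs from bin 6 on, and S1pr1 and Klf2 are high only in bins 9 and 10, where Ccr7 is already at 523 and 596.

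Within stages the genes also varied. The DP-S-like stage was made of 3 clusters, with Ccr9 at 1044, 965 and 1029 CPM, almost level. Ccr4 was 44.3, 25.7 and 109 in them, Ccr7 8.86, 14.7 and 59.5, and Cxcr4 69.3, 77.2 and 22.6. The cluster highest for Ccr4 and Ccr7 and lowest for Cxcr4 held 487 of the 4107 cells. It shared Chl1, Stk39, B630019A10Rik and Itm2a among its 10 leading genes with the immature SP-CD4-like cluster, and the mean log2 fold of the DP-R markers over all other cells was -2.16 in it, against -0.37 and -0.04 in the other clusters. In those larger clusters, of 1987 and 1633 cells, Ccr7 lay much nearer to the 6.25 CPM of the DP-R-like cells, so its rise at the step into the DP-S-like stage was uneven within the stage. Among the 5 DP-P-like clusters Ccr9 ranged from 150.4 to 480.

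In single cells at 1000 UMIs, pairs of genes were counted against the number that independent detection within each lobe would give, as a description with no test. Among the mature SP-CD4-like cells 38 held UMIs of both Klf2 and S1pr1, against 23.7, so that 32.5% of the Klf2-positive and 18.4% of the other cells had an S1pr1 UMI. The same pair met in 14 SP-CD8-like cells against 7.36. The pairs given here were picked after all 15 pairs in each stage had been seen. Ccr9 and Ccr7 were together in 54 immature SP-CD4-like cells against 78.4, Ccr4 and Ccr7 in 12 against 19.5, and Ccr9 and S1pr1 in 12 SP-CD8-like cells against 28.4.

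Genes with the pattern most like each of the 6 were sought among 9448 genes, by Pearson's r over 32 points, 8 stages in 4 Parse WT lobes, with each lobe's mean removed. The points share lobes and depth, and the r over the 32 Parse Mini points is given second. Klf2 was followed most closely by S1pr1 in the Parse WT points (0.93 and 0.85), where Gm2682 (0.92) and Ms4a4b (0.92) had the higher Parse Mini r of 0.90 each, and S1pr1 by Ms4a6b (0.97 and 0.90), one of the genes that named the mature stage. For Ccr4 the nearest was Tox (0.97 and 0.89), a factor of CD4 lineage development that named the selection stages. The nearest to Ccr7 was 2010016I18Rik (0.97 and 0.97), followed by Skil, Tgfbr2, Evl and Bin2. Ccr9 was nearest to Gm49912 (0.88 and 0.82), and Tnk2 was among its 5 nearest (0.87 and 0.91). Cxcr4 was nearest to Ly6e (0.89 and 0.78), a thymocyte surface protein. Among the 6 themselves Ccr7 correlated with Klf2 at 0.77 and 0.84, with S1pr1 at 0.77 and 0.81 and with Cxcr4 at -0.76 and -0.72.

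The other genes of migration formed a list of 79 in 5 groups, of which 46 had enough counts to be tested. The list was chosen with earlier results of these data known, so its counts of calls are description only. Of 17 other chemokine receptors only Ccr8 was tested, with 3 of 12 sphingosine 1-phosphate genes, 1 of 7 ligands, 27 of 29 egress regulators and Klf factors, and 14 of 14 adhesion genes. At the step from immature to mature SP-CD4-like cells 23 of the 46 rose and 6 fell, with a median log2 change of 0.35, where 14.8% of all genes rose and 11.1% fell, with a median of -0.006. Of the adhesion genes 9 of 14 rose, among them Itgb7, an integrin of gut homing, by 2.20 ± 0.22 (adjusted p = 4.45e-14). Among the egress regulators Klf3 rose by 2.02 ± 0.19, Foxo1, a factor that drives Klf2, by 1.80 ± 0.10, and Rgs1, a brake on chemokine receptor signalling, by 2.38 ± 0.36. Plxnd1, a semaphorin receptor of DP thymocytes, fell by 1.40 ± 0.19, and the integrin gene Itgb1 by 0.93 ± 0.12.

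The entry into the immature SP-CD4-like stage was more even, with 13 of 46 higher and 18 lower and a median of -0.15, where 18.2% of all genes rose and 18.4% fell, with a median of 0.009. Ccr8, a receptor for CCL1, rose by 5.28 ± 0.55 (adjusted p = 6.03e-14), Itgb3, an integrin subunit, by 3.51 ± 0.19 and Cd69, which removes S1PR1 from the cell surface, by 1.15 ± 0.14. Klf3 fell by 1.95 ± 0.18, Gfi1 by 1.87 ± 0.20 and Itga6 by 1.18 ± 0.15. Cd69 had already risen by 2.18 ± 0.14 from the DP-R-like to the DP-S-like cells, beside Rgs10 at 1.97 ± 0.08, when 11 of the list rose and 15 fell, with a median of -0.04, where 17.8% of all genes rose and 15.3% fell, with a median of 0.006.

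At the first step, from DN-like to DP-P-like cells, 19 of 46 rose and 15 fell, where 29.2% of all genes rose and 24.9% fell. Rgs1 fell by 4.17 ± 0.31, Cd69 by 3.09 ± 0.18 and Cd44 by 1.90 ± 0.22, while Plxnd1 rose by 1.66 ± 0.13 and Nrp1 by 1.06 ± 0.14. At the next, 23 rose and 7 fell, where 37.5% of all genes rose and 38.1% fell, led by Plxnd1 at 1.30 ± 0.06 and Rgs14 at 1.18 ± 0.09. Between the SP lineages, where 5.78% of all genes were higher in the SP-CD8-like cells and 8.26% lower, 2 of 46 were higher, Itgae by 4.14 ± 0.17, the integrin that binds E-cadherin on epithelium, and Selplg by 0.54 ± 0.11. Another 9 were lower, among them Nrp1 (-2.06 ± 0.43), Itgb3 (-1.78 ± 0.17) and Ccr8 (-1.66 ± 0.34). Ccr8 and Nrp1 are also genes of regulatory T cells, whose Foxp3 was in the mature SP-CD4-like cluster. The part of these cells in the difference was not tested, nor was that of maturity.

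**Figure D3:**
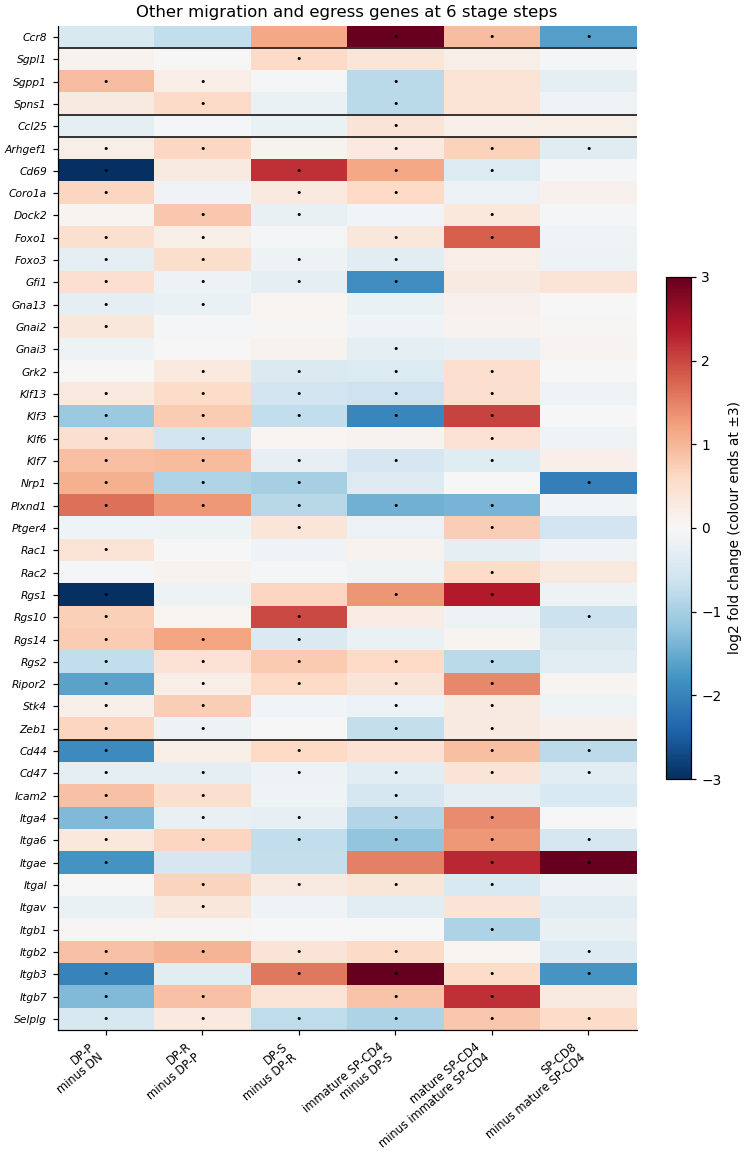
Log2 fold change of 45 of the 46 tested genes of the migration list (rows, by group) at the 6 steps between stages (columns). Colours end at 3 in either direction, and a dot marks an adjusted p under 0.05. The step into the mature SP-CD4-like stage holds 22 rises among the genes drawn and 6 falls, and the comparison of the SP lineages holds 2 and 9.

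In the thymus the genes were also seen in other cells. Antigen-presenting (APC-like) cells had Ccr7 at 333 CPM, with a UMI in 11.8% of 204 cells.

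In the other 16 samples of the Parse WT kit, which are not replicates of a group, levels are given as the median over samples with the lowest and highest. T cells were above B cells for Ccr7 in 15 of 16 samples, at 126 (40.9 to 214) against 62.3 (30.1 to 97.7) CPM. They were also above for Ccr4 in 14, at 14.9 against 3.59, and for S1pr1 in 13, at 161 (84.3 to 266) against 125 (70.3 to 161). Cxcr4 went the other way, with T above B cells in 2 of 16 samples and medians of 42.2 and 88.3. Klf2 was above in 11 samples, at 82.9 (29.6 to 134) against 69.7 (34.3 to 115), and Ccr9 in 9, at 13.7 against 9.52, and for both genes the ranges over samples overlapped widely. In erythroid-like cells of 14 of these samples the medians were 46.4 for Cxcr4, 15.5 for Ccr9 and 0 for the other 4 genes. The Cxcr4 of the T cells and the Ccr9 of T and B cells were therefore at or under the erythroid-like level. As in the thymus, that level is not read as background for Cxcr4.

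Among the T cells, CD4 cells were above CD8 cells for Ccr4 in 15 of 16 samples, with medians of 20.8 (0 to 83.3) and 3.06, and CD8 cells were above for Cxcr4 in 14, at 49.1 and 29.8. For the egress pair the lineages were close. S1pr1 was higher in the CD4 cells of 11 samples, at 179 and 147, and Klf2 in 7, at 92.0 and 94.7. Regulatory T cells, compared in 13 samples, had less Ccr7 than the other CD4 cells in all 13, at 69.4 against 124, less Klf2 in 11, at 46.5 against 92.6, and less S1pr1 in 10, at 129 against 190.0.

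Set beside the Parse WT lobes, with medians over samples against means over lobes, the CD4 cells of these samples had S1pr1 at 179 where the mature SP-CD4-like thymocytes had 250.2, and Klf2 at 92.0 where these had 123. Their Ccr7 was 122 where the thymocytes had 603. The CD4 class of these samples pools unlike clusters, and Ccr7 differed between them as given below. The part of this mix in the difference was not tested. The samples also held between 4 and 452 barcodes each that clustered as DP-R-like cells.

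Subsets differed further. A CD8 cluster led by Ccl5 and Tbx21, genes of effector cells, had Ccr7 at 13.3 and S1pr1 at 66.4 where another CD8 cluster had 203 and 209, while Klf2 was 99.6 and 97.7 in them. The CD4 cluster led by Tox2 and Maf had Ccr4 at 44.9 and Ccr7 at 72.1, where the one led by Lef1 had 4.18 and 240. These CD4 and CD8 clusters were picked after their values were seen, and which samples they hold was not compared. Klf2 and S1pr1 also came apart outside the T cells. Marginal zone B-like cells, a B subset of the spleen that S1PR1 holds in place, had S1pr1 at 173 (143 to 308) and Klf2 at 2.56 (0 to 34.5) in 10 samples. NK-like cells had S1pr1 at 12.5 and Klf2 at 73.2 in 5 samples, and monocyte-like cells had S1pr1 at 0 and Klf2 at 71.4. Plasmacytoid dendritic-like cells, which use CCR9 for homing, had Ccr9 at 532 (400 to 951) in 6 samples.

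**Figure D4:**
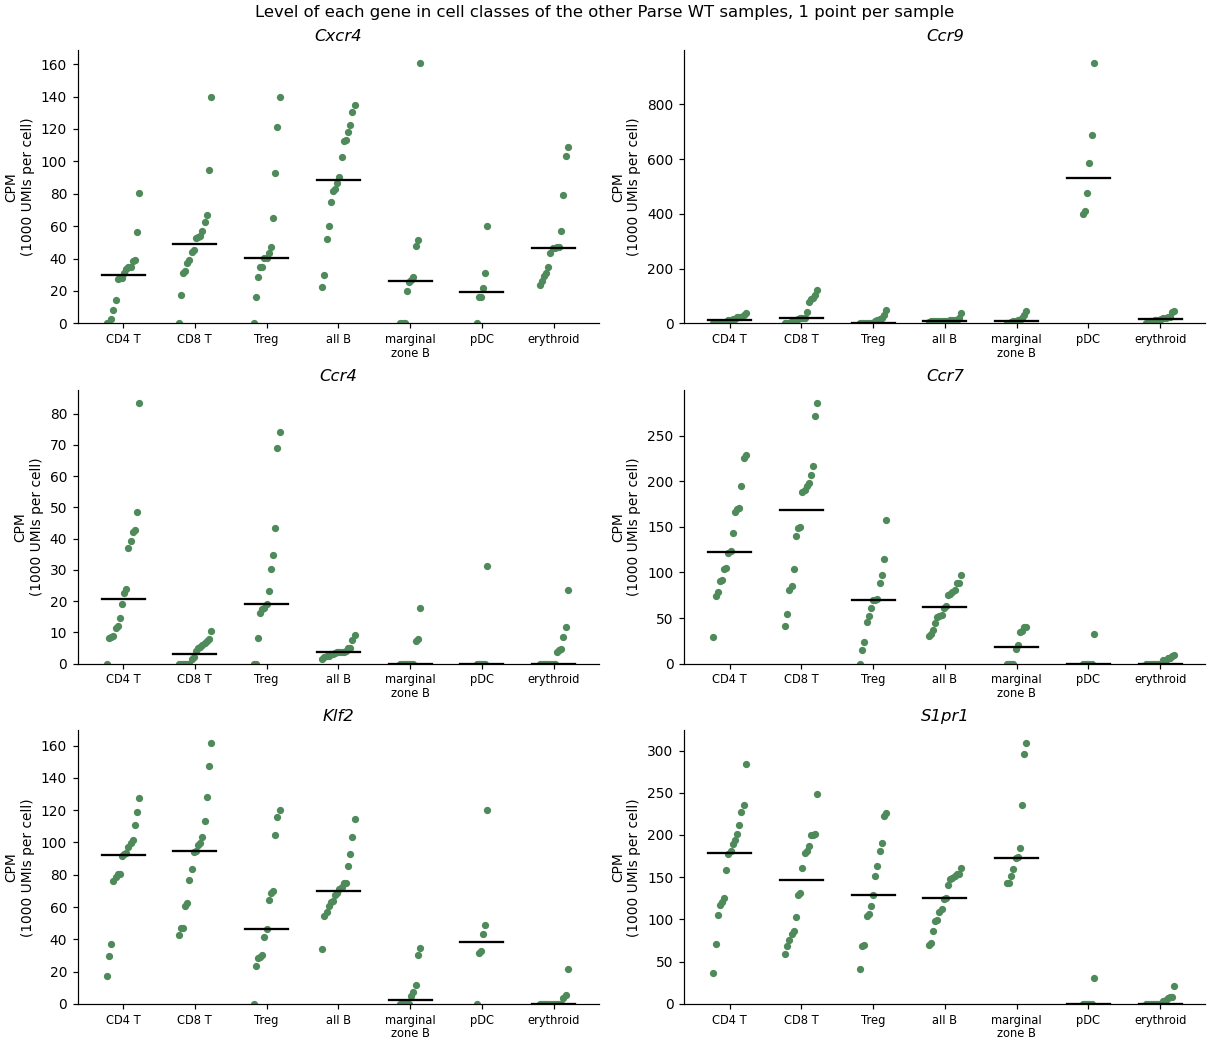
Level of each of the 6 genes (y axis, CPM at 1000 UMIs per cell) in cell classes (x axis) of the 16 other samples. Each point is 1 sample with at least 20 cells of the class and each line is the median over samples. T cells are above B cells for Ccr7 in 15 of 16 samples and below for Cxcr4 in 14, and plasmacytoid dendritic-like cells have Ccr9 at a median of 532.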

How the data were processed

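The authors deposited UMI counts per cell and gene for each kit, without normalization, with the sample of each cell. They ran split-pipe per sublibrary on the mm10 build and combined sublibraries. The sources used here do not give its version. Limits of 500 and 25000 UMIs and of 15% mitochondrial UMIs were set on cells. The cells with the highest doublet scores (31% in Parse WT, 21% in Parse Mini) were removed. These rates are the doublet shares that the study states, and were chosen after the data were seen. The expected barcode collision share was 1.40% to 6.19% per thymic lobe. Median UMIs per thymic lobe were 7764 to 10329 in the removed and 1762.5 to 2500 in the kept cells. Leiden clustering (leidenalg 0.10.2, Python 3.11.15) used 2000 genes, 30 components and resolution 2, without the 6 genes and the migration list. Cells were thinned to 1000 UMIs by a seeded draw. Counts were summed per lobe and stage (at least 20 cells; 96915 to 8533195 UMIs) and tested with edgeR 4.0.16 in R 4.3.3, filterByExpr and TMM, with lobe as a block, since all stages of a lobe come from that lobe. Scripts were tested on simulated data.

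The members and lists were chosen with earlier results of these data known. Named genes were the 6 members, at most 5 migration genes per step and direction that were called and moved alike in every lobe, and the 5 genes nearest each member. Genes named beside a cluster lead it or define a cell type. One gene of the migration list is counted but not reported here by name. The 16 samples without a group entered no test. Alternatives were other normalizations, filters, thinning depths, cluster settings, doublet removal, kits alone and each lobe left out.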

Additional observations from a re-analysis of the deposited data

Results flagged for a closer look

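In 12 of 91 groups of 4 lobes examined, 1 lobe lay far from the other 3 by Dixon's test. A chance rate of about 1 in 20 groups holds for continuous values, not for counts tied at 0. S1pr1 in the mature SP-CD4-like cells was 336 CPM in Parse WT lobe 1, where lobes 2 to 4 lay at 221 to 222, from 47 UMIs in 140 cells. Ccr7 in the same cells was 707 in Parse WT lobe 1, where the others lay at 561 to 577. Cxcr4 in the DP-R-like cells was 45.0 in Parse Mini lobe 2-A, where the others lay at 81.9 to 85.8. Ccr9 in the DN-like cells was 115 in Parse Mini lobe 1-A, where the others lay at 196 to 200.

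The remaining 8 flags rest on 1 or 2 UMIs where the other lobes of the group were at 0, so any UMI there gave a flag. Ccr4 in the DN-like cells was 19.2 in Parse Mini lobe 1-A and 9.35 in Parse WT lobe 2. Klf2 was 5.42 in the DP-S-like cells of Parse Mini lobe 2-B, 16.4 in the immature SP-CD4-like cells of Parse Mini lobe 2-A and 14.5 in the signalled DP-S-like cells of Parse WT lobe 1. S1pr1 in Parse Mini lobe 2-B was 18.2 in the DN-like, 2.83 in the DP-P-like and 2.71 in the DP-S-like cells. Of 36 differences between kits in the steps of the 6 genes, 0 had an adjusted p under 0.05 in edgeR's interaction test and 6 an unadjusted p under 0.05.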

How the results depend on the processing

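The 6 genes had 20 called changes over the 6 steps, where between 14% and 75.6% of all genes were called per step. Over the alternatives run, 440 of these values kept their direction and stayed called, 19 kept their direction and lost the call, and 1 turned: S1pr1 in SP-CD8-like against mature SP-CD4-like cells was 0.0068 with 15 components. Without the replicate block, by which the stages of a lobe are paired, Cxcr4 from DP-P-like to DP-R-like cells was -0.27 (adjusted p = 0.110) and Klf2 in SP-CD8-like against mature SP-CD4-like cells -0.64 (adjusted p = 0.05002), and no other call was lost. That Klf2 difference was also not called with doublets kept (-0.35), with 15 components (-0.13) or with the members kept in clustering (-0.29), nor was that of S1pr1 with DESeq2's Wald test (-0.61), in the Parse Mini lobes (-0.57), with doublets kept (-0.29) or with the members kept in clustering (-0.41). Changes that were not called and turned were Ccr7 from DN-like to DP-P-like cells with no upper UMI limit (0.96), Klf2 at that step with doublets kept (-1.17) or removed at the barcode collision share (-1.28), and Ccr4 from DP-P-like to DP-R-like cells with no upper limit (-1.17) or at resolution 1 (-0.52). Ccr7 from DN-like to DP-P-like cells ran from -0.49 to 0.17 with each lobe left out. The cause of these changes was not tested.

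Of the 6 genes, those called from DN-like to DP-P-like cells were 2 with DESeq2's size factors or Wald test, in the Parse WT lobes, with no upper limit or with the members kept in clustering, 3 at resolution 3, and 5 with doublets kept or at the collision share, where between 43.3% (Parse WT lobes) and 56.6% (doublets kept) of all genes were called. From DP-P-like to DP-R-like cells 6 were called with no upper limit or at resolution 1 and 5 with 15 components, with 75.2% to 77.7% of all genes called. From DP-R-like to DP-S-like cells 5 were called with doublets kept or 15 components and 6 at the collision share, with 35.8% to 38.5% of all genes called. Cxcr4 was the member added at that step on thinned cells, in the Parse WT lobes, with DESeq2 size factors, with sums per kit, with no filter on low counts and without Parse WT lobe 1 or 2 or Parse Mini lobe 1-A or 2-A (-0.22 to -0.31), and Klf2 with no upper limit (1.06), at resolution 1 (0.88) and without Parse Mini lobe 1-B (0.89). In SP-CD8-like against mature SP-CD4-like cells 1 was called in the Parse Mini lobes, with doublets kept, with 15 components and with the members kept, with 6.37% to 14.4% of all genes called. With each lobe left out, 1 to 2 were called at the first step (Ccr4 without Parse WT lobe 1, -1.09, or 4, -1.45), 3 to 4 from DP-R-like to DP-S-like and 4 to 5 to immature SP-CD4-like cells. Calls among all genes were then 3709 to 4039, 2260 to 2453 and 2435 to 2691 at these steps. Among all genes, the Parse Mini lobes gave 2737 calls at the first step, 1577 from DP-R-like to DP-S-like, 1683 to immature SP-CD4-like, 1082 to mature SP-CD4-like and 431 between the SP lineages, where the Parse WT lobes gave 706. Thinned cells gave 2146 at the first step, 3615 from DP-P-like to DP-R-like, 1691 to immature SP-CD4-like, 1137 to mature SP-CD4-like and 501 between the SP lineages. The step to mature SP-CD4-like cells gave 3056 calls with doublets kept and 3021 at the collision share, and the SP lineages 1919 at resolution 1. Ccr9 in the DP-S-like cells was 879 CPM with ribosomal RNA kept. On the axis without DP-R-like cells, added after seeing the data, Ccr9 was highest at 50% of the axis and Ccr4 at 60%, against 90% and 95% with them. The 50% for Ccr9 is the highest point of a level stretch from bin 1 to bin 6.

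Depth limits S1pr1 and Klf2 before the mature stages, where a lobe's value rests on 0 to a few UMIs, and 86 erythroid-like cells limit the background. Stages come from clusters of the same cells, and lobes of 2 mice per kit are not independent animals.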
